A study of Mus musculus with 9 samples.

Results

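Thrombospondins and Ccn proteins are secreted matricellular proteins, which sit in the extracellular matrix and act on cells through surface receptors rather than as structural fibres. The 7 genes described here are the thrombospondins Thbs1, Thbs2 and Thbs3, the Ccn genes Ccn1 (also Cyr61), Ccn2 (Ctgf) and Ccn4 (Wisp1), and Spp1, which encodes osteopontin. They were taken by gene symbol from 16399 genes listed for MC38 mouse colon carcinoma cells, and all 7 were found. The members were chosen from values measured in the same 9 libraries, so their levels and differences are given as a description without a test.

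MC38-P is the parental line, and MC38-LM3a and MC38-LM3b are liver metastatic derivatives, each with 3 libraries. According to the methods of the study, MC38-P cells carried GFP and firefly luciferase, and both derivatives were isolated from liver metastases after repeated intrasplenic injection of these cells into syngeneic C57BL/6 mice. All lines were grown in culture without further treatment, and each derivative is a single selected line, so replicates measure the spread between cultures of that line and not between selections. The comparisons ask which transcripts differ between the derivatives and the parental line, and both share the MC38-P libraries. Abundance was deposited as TPM, a transcript level corrected for transcript length, with a common total for all libraries.

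Thbs1 and Thbs2 are trimeric thrombospondins that bind the receptors Cd36 and Cd47, and Thbs1 can activate latent TGF-beta. Thbs3 belongs to the pentameric thrombospondins, which lack the domain that binds Cd36. Ccn1 and Ccn2 bind integrins and heparan sulfate and are standard target genes of YAP/TEAD, the transcription factors held back by the Hippo pathway, and of the actin-regulated factor SRF. Ccn4 is known as a target gene of Wnt signalling. Osteopontin binds integrins and Cd44 and is secreted by many carcinoma cells.

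Libraries of the same line were not uniform along transcript length. Across 11096 genes with a known length, the deviation of a library from the mean of its line had a Spearman correlation with length of -0.62 in MC38-P replicate 3 and of 0.64 in MC38-LM3a replicate 3, against -0.01 to 0.02 in the MC38-LM3b libraries. The other MC38-P libraries had 0.51 and 0.41 and the other MC38-LM3a libraries -0.55 and -0.51, and since deviations within a line sum to 0, these values and those of replicate 3 are not independent. The transcripts of Thbs2, Thbs1 and Ccn4 are long (5895, 5848 and 5097 bases for the longest annotated form), that of Thbs3 has 4034 bases, and those of Ccn2, Ccn1 and Spp1 are shorter (2490, 2019 and 1507 bases). Several values are therefore also given with offsets for GC content and length, or without replicate 3 of these 2 lines. The offsets also remove differences in overall level between libraries, so a change with them cannot be credited to GC content and length alone. The median difference over all 11287 genes tested was 0.00 for MC38-LM3a and 0.21 for MC38-LM3b against MC38-P in log2(TPM + 1), and differences below are on this scale, which understates the change of low genes.

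Thbs2 was present in the parental line and nearly absent from both derivatives. Its level was 8.30, 8.20 and 5.18 TPM in the MC38-P libraries. MC38-LM3a held 0.01, 0.03 and 0.05 TPM, and MC38-LM3b 0.04, 0.09 and 0.04 TPM. The lowest MC38-P library lay 104-fold above the highest MC38-LM3a library and 57.6-fold above the highest MC38-LM3b library. The means of 7.23 ± 1.77 TPM (SD, n = 3), 0.0300 ± 0.0200 TPM and 0.0567 ± 0.0289 TPM gave differences of -2.97 for MC38-LM3a and -2.94 for MC38-LM3b (SE 0.156). With 0.1 added to TPM in place of 1 the differences were -5.80 and -5.53, and with 0.5 they were -3.84 and -3.77. Thbs2 passed the filter on low values through the 3 MC38-P libraries alone, and the values of the derivatives lie too near 0 for a comparison between them. Files without read counts give no depth, so the error of these low values is unknown.

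The promoters of Thbs2 and Thbs3, the thrombospondins that were lower in every library of both derivatives, are shown from 250 bases before to 50 bases after the annotated start in RefSeq (GRCm38.p6), 5′ to 3′ on the strand of the gene. Capitals in this and the later promoters mark matches, on either strand, to GGAATG (bound by TEAD factors), TGANTCA (AP-1), TGTGGT (RUNX) or a CArG box (SRF). Thbs2 lies on the minus strand at chr17:14694213-14694512, and Thbs3 on the plus strand at chr3:89214930-89215229.
Thbs2: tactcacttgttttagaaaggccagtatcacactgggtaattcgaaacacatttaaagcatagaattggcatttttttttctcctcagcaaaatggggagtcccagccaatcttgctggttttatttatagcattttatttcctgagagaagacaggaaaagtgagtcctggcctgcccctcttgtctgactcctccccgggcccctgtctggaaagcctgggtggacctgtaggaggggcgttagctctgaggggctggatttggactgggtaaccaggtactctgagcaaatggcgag
Thbs3: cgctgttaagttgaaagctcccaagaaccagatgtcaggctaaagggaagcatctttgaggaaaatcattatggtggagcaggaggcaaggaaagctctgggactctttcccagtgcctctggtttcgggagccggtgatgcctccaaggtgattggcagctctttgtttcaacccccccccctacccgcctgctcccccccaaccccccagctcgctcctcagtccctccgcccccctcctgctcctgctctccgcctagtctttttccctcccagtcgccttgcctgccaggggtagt
None of these letters occurred in either window, which says nothing of the factors themselves. Among 32851 promoter windows of the same length, 14.7% held GGAATG, 7.81% TGANTCA, 16.8% TGTGGT and 1.63% a CArG box. The Thbs2 window held 4 CpG dinucleotides and the Thbs3 window 8, against a median of 7 over all windows.

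Thbs3 was also lower in every library of the derivatives but stayed measurable. It stood at 7.21, 5.86 and 5.70 TPM in MC38-P, with MC38-LM3a at 0.90, 1.25 and 1.09 TPM and MC38-LM3b at 0.78, 0.60 and 0.63 TPM. The MC38-LM3b libraries and MC38-LM3a replicate 1 lay below the filter limit of 1 TPM, so Thbs3 passed only with the MC38-P libraries. The means were 6.26 ± 0.829, 1.08 ± 0.175 and 0.670 ± 0.0964 TPM (SD, n = 3), which is 5.79-fold and 9.34-fold below MC38-P. Thbs3 was the only member whose 3 MC38-LM3b libraries all lay below the 3 MC38-LM3a libraries, with a difference of -0.31 between the derivatives (SE 0.126) and of -0.56 with offsets. Mtx1, a mitochondrial import gene and the nearest tested gene on one side of Thbs3, also fell in both derivatives, by 0.31 (limma, adjusted p = 0.0114) and by 0.34 (adjusted p = 0.00478).

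Thbs1 was the most abundant thrombospondin in all 9 libraries, and its difference was smaller and less even. MC38-P libraries held 38.20, 36.01 and 24.88 TPM, MC38-LM3a libraries 17.83, 16.04 and 25.24 TPM, and MC38-LM3b libraries 28.35, 28.14 and 25.42 TPM. The libraries of MC38-P overlapped with those of both derivatives, and in both overlaps the low MC38-P library was replicate 3. The differences were -0.72 for MC38-LM3a and -0.24 for MC38-LM3b (SE 0.181). With offsets, values were 36.2, 35.9 and 30.7 TPM in MC38-P, whereas MC38-LM3a held 21.2, 19.4 and 22.8 TPM and MC38-LM3b 24.4, 24.6 and 22.3 TPM. On that scale every derivative library lay below every MC38-P library, and the differences were -0.67 and -0.51. Leaving out replicate 3 of MC38-P and of MC38-LM3a gave -1.09 and -0.43, and leaving out 1 library at a time gave -0.90 to -0.59 for MC38-LM3a and -0.43 to -0.13 for MC38-LM3b, the last without MC38-P replicate 1.

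**Figure D1:**
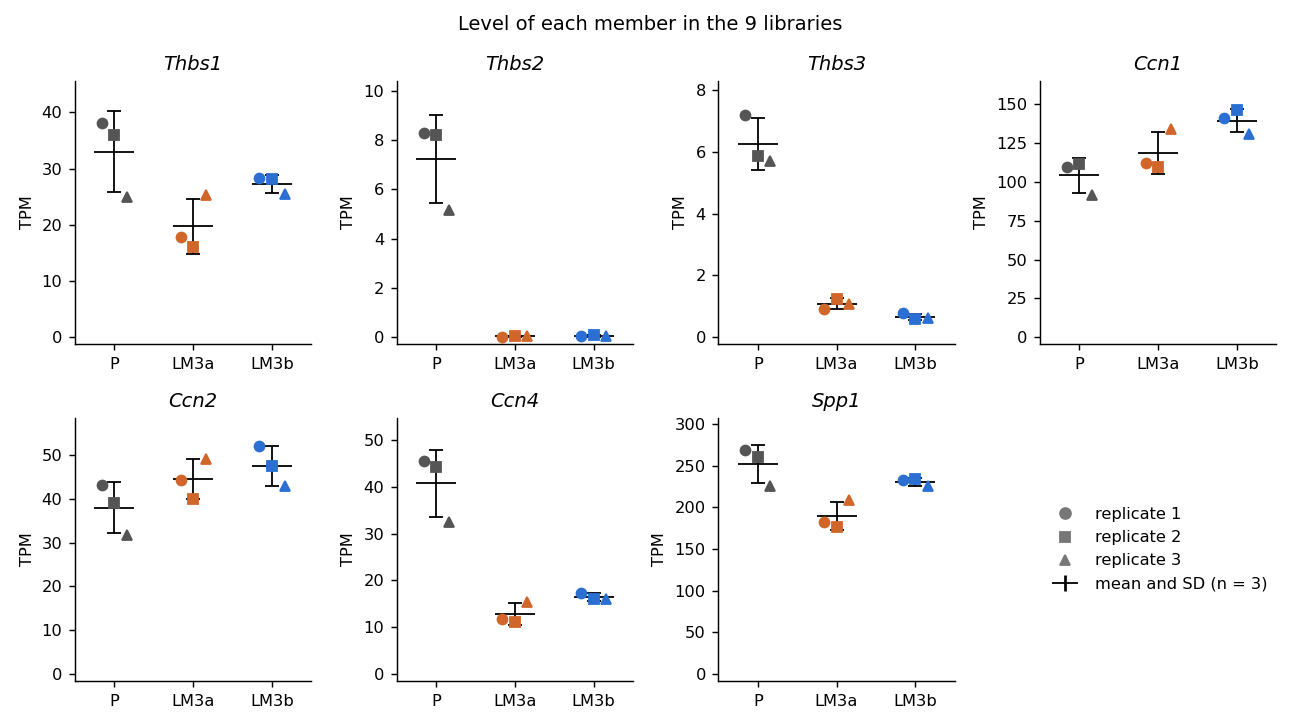
TPM of each member (vertical axes, linear, one scale per gene) in the 3 libraries of each line, with marker shapes for the replicate number and black lines for the mean and SD. Thbs2, Thbs3 and Ccn4 are separated between MC38-P and both derivatives, whereas the libraries of Ccn2 overlap between all lines.

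The makeup of the thrombospondin transcripts followed from these levels. The summed level of the 3 genes was 46.5 ± 9.49 TPM in MC38-P, and the derivatives held 20.8 ± 4.87 TPM (MC38-LM3a) and 28.0 ± 1.69 TPM (MC38-LM3b; SD, n = 3). Thbs1 made up 70.9 ± 1.19% of the sum in MC38-P against 94.5 ± 1.64% and 97.4 ± 0.210% in the derivatives. Thbs2 contributed 15.4 ± 0.946% in the parental line and 0.139 ± 0.0744% and 0.201 ± 0.0967% in the derivatives, while Thbs3 went from 13.7 ± 2.13% to 5.38 ± 1.62% and 2.39 ± 0.297%. The shares of MC38-P did not overlap with those of either derivative for any of the 3 genes. MC38-P replicate 3 had the lowest level of each of these genes in its line, whereas its share of Thbs1, at 69.6%, was close to the 71.1% and 71.9% of its replicates.

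Ccn4 was the Ccn gene that differed most between the parental line and the derivatives. It was measured at 45.63, 44.16 and 32.59 TPM in MC38-P, with MC38-LM3a at 11.67, 11.17 and 15.45 TPM and MC38-LM3b at 17.39, 16.00 and 16.01 TPM. Every derivative library lay below every MC38-P library, and every MC38-LM3b library above every MC38-LM3a library. The means were 40.8 ± 7.14, 12.8 ± 2.34 and 16.5 ± 0.800 TPM, or 3.20-fold and 2.48-fold below MC38-P, with differences of -1.60 and -1.24 (SE 0.148). With offsets the difference between the derivatives went from 0.36 to 0.09.

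Ccn4 lies on chromosome 15, whose 464 genes tested had a median difference of -0.53 and -0.31 in MC38-LM3a and MC38-LM3b, against 0.00 and 0.21 over all genes. Chromosomes of the other members had medians of at most 0.03 in MC38-LM3a and, in MC38-LM3b, of 0.21 to 0.24. Ndrg1, a stress-responsive gene and the nearest tested gene on one side of Ccn4, fell by 1.12 in MC38-LM3a (limma, adjusted p = 2.3e-05) and by 0.95 in MC38-LM3b (adjusted p = 5.4e-05). Phf20l1, on the other side, differed by -0.37 (adjusted p = 0.0938) and 0.01 (adjusted p = 0.951), and with offsets it fell by 0.27 in both derivatives (adjusted p = 0.00048 and 0.000428). Ccn3, a Ccn gene elsewhere on the same chromosome, went from 8.53 ± 1.15 TPM in MC38-P to 4.12 ± 0.763 and 4.87 ± 0.302 TPM in the derivatives, and fell by 0.90 (adjusted p = 0.000862) and by 0.69 (adjusted p = 0.0027). The share of the chromosome in the level of Ccn4 was not tested.

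Ccn1 was the most abundant Ccn gene and was not lower in the derivatives. Its levels were 109.76, 111.50 and 91.49 TPM in MC38-P. MC38-LM3a held 112.20, 109.48 and 134.20 TPM, and MC38-LM3b 141.38, 146.16 and 131.19 TPM. The MC38-LM3b libraries all lay above MC38-P (difference 0.42, SE 0.0988, and 0.31 with offsets and 0.20 with median centring, which sets all libraries to a common median over genes), whereas those of MC38-LM3a overlapped with MC38-P (difference 0.18). The median difference over all genes in MC38-LM3b was 0.21. Without replicate 3 of MC38-P and MC38-LM3a, the difference of MC38-LM3a was 0.00 and that of MC38-LM3b 0.33.

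Ccn2 overlapped between all lines. It was at 43.19, 39.15 and 31.65 TPM in MC38-P, with MC38-LM3a at 44.31, 39.92 and 49.08 TPM and MC38-LM3b at 52.18, 47.60 and 43.00 TPM. The differences of 0.23 and 0.32 (SE 0.124) were 0.19 and 0.17 with offsets, and 0.03 and 0.20 without the 2 libraries, and that of MC38-LM3b was 0.10 with median centring. The ratio of Ccn1 to Ccn2 was 2.76 ± 0.191 in MC38-P, and with 2.67 ± 0.119 and 2.94 ± 0.203 the derivatives overlapped with it. The ratio of Ccn2 to Ccn4 was 0.935 ± 0.0435, 3.52 ± 0.314 and 2.89 ± 0.175, which set the parental line apart from both derivatives.

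The Ccn sum overlapped between all lines, at 183 ± 23.7, 176 ± 20.2 and 204 ± 11.7 TPM. The share of Ccn4 in it was 22.2 ± 1.11% in MC38-P against 7.22 ± 0.477% and 8.10 ± 0.415% in the derivatives. Ccn1 made up 57.1 ± 1.74%, 67.5 ± 0.735% and 68.6 ± 1.38%, and Ccn2 20.7 ± 0.896%, 25.3 ± 0.909% and 23.3 ± 1.20%.

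**Figure D2:**
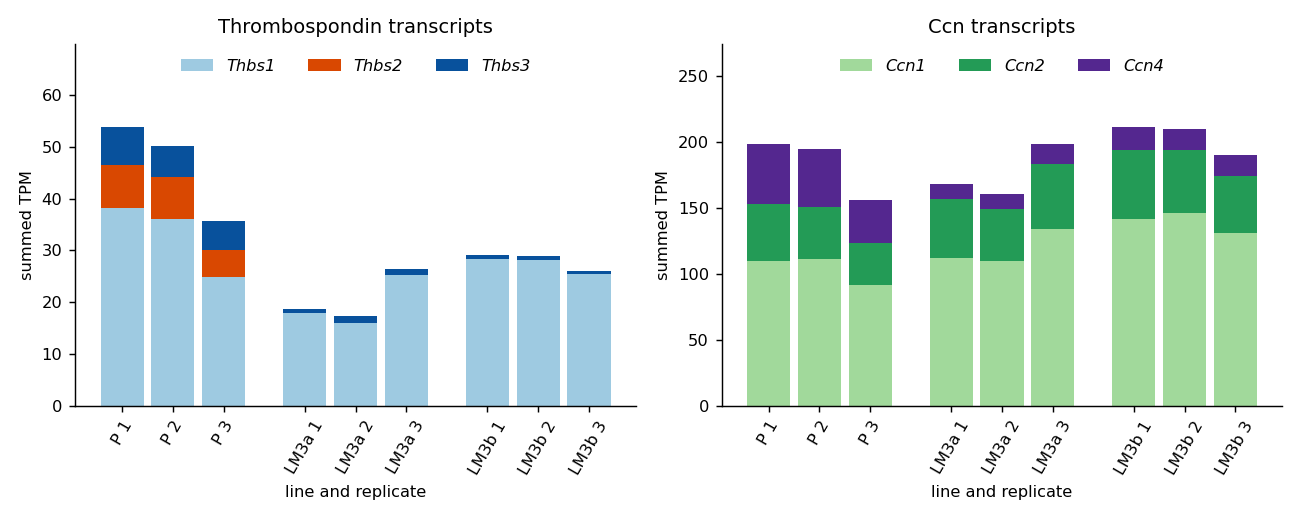
Summed TPM (vertical axes from 0) of Thbs1, Thbs2 and Thbs3 on the left and of Ccn1, Ccn2 and Ccn4 on the right, one bar per library, split by gene. Thbs2 is not visible in the derivative bars, and the Ccn4 segment shrinks from about 22.2% to 7.22% and 8.10% of a sum that overlaps between lines.

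The promoters of Ccn1 and Spp1, the members with the highest levels, are shown in the same way as those of Thbs2 and Thbs3, from the minus strand at chr3:145649936-145650235 and the plus strand at chr5:104434861-104435160.
Ccn1: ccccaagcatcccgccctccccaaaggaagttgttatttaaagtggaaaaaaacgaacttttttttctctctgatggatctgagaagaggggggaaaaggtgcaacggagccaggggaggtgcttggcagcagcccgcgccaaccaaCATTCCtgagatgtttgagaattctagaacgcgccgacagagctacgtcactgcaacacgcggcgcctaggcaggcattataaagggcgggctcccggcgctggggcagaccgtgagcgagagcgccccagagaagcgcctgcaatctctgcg
Spp1: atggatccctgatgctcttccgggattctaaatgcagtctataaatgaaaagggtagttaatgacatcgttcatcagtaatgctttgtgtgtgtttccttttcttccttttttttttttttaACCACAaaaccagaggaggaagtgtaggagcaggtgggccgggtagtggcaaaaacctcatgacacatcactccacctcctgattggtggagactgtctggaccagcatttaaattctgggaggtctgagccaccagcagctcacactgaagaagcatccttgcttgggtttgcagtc
The Ccn1 window held a match to GGAATG on the opposite strand, 103 to 98 bases before the start, and 20 CpG dinucleotides. The Spp1 window held a match to TGTGGT on the opposite strand, 128 to 123 bases before the start, and 3 CpG dinucleotides. No other motif of the list was found in them, and a second annotated start of Spp1 had none. The reference table matched 4 of the 7 members.

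Spp1 was the most abundant member in every library. It stood at 269.15, 260.14 and 225.85 TPM in MC38-P, with MC38-LM3a at 182.52, 176.84 and 208.90 TPM and MC38-LM3b at 232.62, 233.83 and 225.49 TPM. All MC38-LM3a libraries lay below both other lines, with means of 252 ± 22.8, 189 ± 17.1 and 231 ± 4.51 TPM in the order parental line, MC38-LM3a, MC38-LM3b. The difference from MC38-P was -0.41 for MC38-LM3a and -0.12 for MC38-LM3b (SE 0.0816), and the MC38-LM3b libraries overlapped with MC38-P. Leaving out 1 library at a time gave -0.20 to -0.07 for MC38-LM3b. With offsets the differences were -0.55 and -0.33, and the MC38-LM3b libraries also lay below all MC38-P libraries. The ratio of Spp1 to Ccn1 was 2.42 ± 0.0739 in MC38-P against 1.60 ± 0.0376 and 1.65 ± 0.0600 in the derivatives.

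In order of TPM, MC38-P had Spp1, then Ccn1, then Ccn4, Ccn2 and Thbs1, whose neighbours in this order overlapped between libraries, and last Thbs2 and Thbs3, which also overlapped. In both derivatives the order was Spp1, Ccn1, Ccn2, Thbs1, Ccn4, Thbs3 and Thbs2, with no overlap between neighbours. Ccn4 thus followed Ccn1 in the parental line and stood below Thbs1 in the derivatives.

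By size alone, 3 of 7 members (Thbs2, Thbs3 and Ccn4) were lower by more than 1 in log2(TPM + 1) in both derivatives. Of all genes tested, 1.53% were lower by more than 1 in MC38-LM3a and 1.2% in MC38-LM3b. No member was higher by more than 1, and none differed by more than 1 between the derivatives. The libraries of 4 members lay wholly below MC38-P in MC38-LM3a and those of 3 members in MC38-LM3b, against 15.9% and 15.4% of all genes. No member lay wholly above MC38-P in MC38-LM3a, where 20.3% of genes did, and 1 member (Ccn1) did in MC38-LM3b, where 51.3% did. Between the derivatives, 1 member lay wholly lower in MC38-LM3b (3.6% of genes) and 3 members wholly higher (38.4%), namely Thbs1, Ccn4 and Spp1. With offsets the Thbs1 libraries of the derivatives overlapped, and its difference between them went from 0.47 to 0.16. Thbs2 and Thbs3 passed the filter on low values only with the MC38-P libraries. For this reason, and because the members were selected on these contrasts, nothing is read from the counts of members. Among the members, Ccn4 in MC38-LM3b, at -1.24, was nearest to the limit of 1 from inside, and Thbs1 in MC38-LM3a, at -0.72, nearest from outside.

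**Figure D3:**
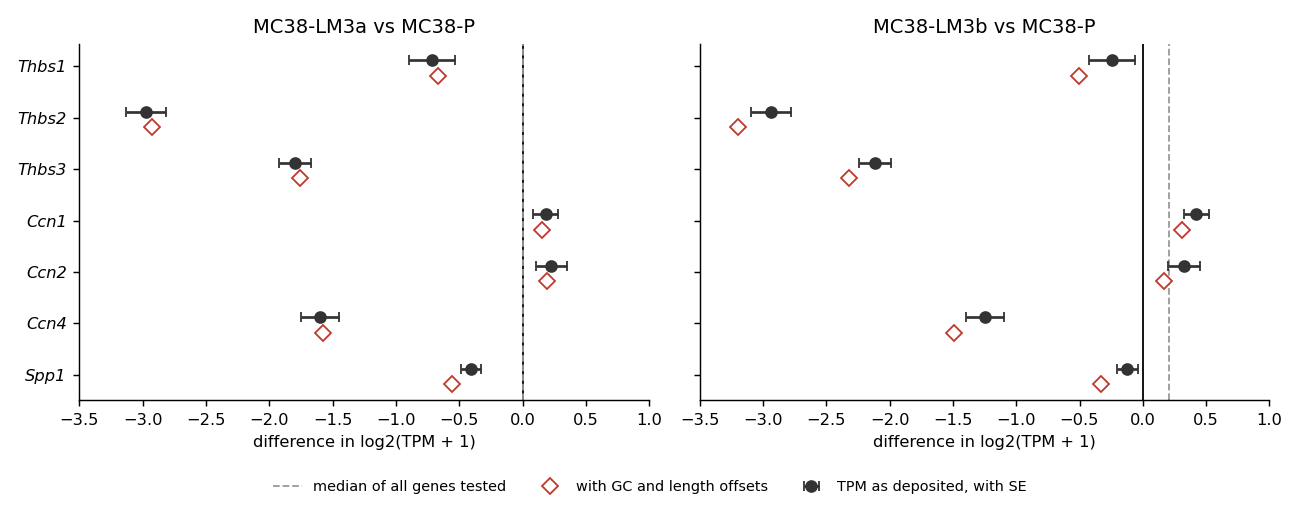
Difference in log2(TPM + 1) of each member from MC38-P in MC38-LM3a (left) and MC38-LM3b (right), with the standard error of the fit, open diamonds for the values with GC and length offsets, and a dashed line at the median of all genes (0.00 and 0.21). Thbs2, Thbs3 and Ccn4 lie beyond -1 in both panels with and without offsets, and Ccn1 and Ccn2 lie above 0.

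The other genes of these pathways were taken from lists by role, 121 genes in all, of which 84 were tested. They are not members, so each was tested by limma with adjustment over all genes. In MC38-LM3a 12 of the 84 rose and 17 fell, where 14.1% of all genes rose and 13.8% fell. In MC38-LM3b 38 rose and 11 fell, where 35.6% of all genes rose and 11.2% fell. The median difference of the 84 was -0.01 and 0.30, beside 0.00 and 0.21 over all genes. With offsets the counts were 30 and 24 in MC38-LM3a and 36 and 24 in MC38-LM3b, so the ratio of rises to falls depends on the scaling. Centring each library on its median gave 19 and 23, and 27 and 22. Between the derivatives 0 of the 84 passed, 50 had an unadjusted p under 0.05, and 0.0532% of all genes passed. Without MC38-LM3a replicate 3, 68 of the 84 passed, 65 of them higher in MC38-LM3b, and with offsets for GC and length 0 passed. For these counts, shares over all genes were worked out only at adjusted p under 0.05 in the main fit. Counts by unadjusted p, with offsets or centring, or with a library left out, here and below, are therefore not read as particular to these genes.

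Among the other thrombospondin and Ccn genes, only Ccn3 reached the filter, and it fell in both derivatives as given above. Means of Thbs4, Comp, Ccn5 and Ccn6 were at most 0.167 TPM in every line. Among other matricellular proteins, Tgfbi, a collagen- and integrin-binding protein induced by TGF-beta, went from 7.60 ± 1.71 TPM to 2.44 ± 0.200 and 2.24 ± 0.458 TPM in the derivatives, a fall of 1.30 (adjusted p = 0.000271) and of 1.40 (adjusted p = 0.000124). Sparc, a collagen-binding protein, was abundant and rose by a small amount, from 785 ± 47.2 TPM to 893 ± 22.5 TPM (0.19, adjusted p = 0.0325) and 974 ± 31.4 TPM (0.31, adjusted p = 0.00158, and 0.18 with offsets). Tnc, the hexameric tenascin, fell in MC38-LM3a from 8.27 ± 1.87 to 4.85 ± 1.06 TPM (-0.66, adjusted p = 0.015) and stood at 6.06 ± 0.0153 TPM in MC38-LM3b (-0.37, adjusted p = 0.0933, and 1.3e-05 with offsets). Of 7 genes tested in this group, 2 rose and 2 fell in MC38-LM3a, and 1 rose and 2 fell in MC38-LM3b. With offsets 2 rose and 3 fell in MC38-LM3a, and 1 rose and 4 fell in MC38-LM3b.

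The receptors and binding partners were mostly present, apart from the classical thrombospondin receptor Cd36, which had a mean of 0.0133 TPM in MC38-LM3a and was listed at 0 in the other lines. Of 17 tested, 5 rose and 3 fell in MC38-LM3a, and 11 rose and 1 fell in MC38-LM3b, whereas with offsets 10 rose and 3 fell in each. The thrombospondin receptor Cd47 was at 85.8 ± 7.23, 96.0 ± 6.17 and 110 ± 3.23 TPM in the parental line, MC38-LM3a and MC38-LM3b, and rose in the latter (0.35, adjusted p = 0.00441), but not with offsets (0.07, adjusted p = 0.302). In MC38-LM3a its difference of 0.16 had an adjusted p of 0.151, and of 0.0373 with offsets. The osteopontin receptor Cd44 rose in MC38-LM3b from 182 ± 20.1 to 245 ± 4.82 TPM (0.43, adjusted p = 0.0119, and 0.17, adjusted p = 0.00414, with offsets), and in MC38-LM3a its adjusted p was 0.521, and 0.0126 with offsets. The integrin subunit Itgav, shared by receptors for Ccn proteins, osteopontin and thrombospondins, rose in MC38-LM3b from 93.2 ± 17.1 to 168 ± 1.94 TPM (0.86, adjusted p = 0.00208, and 0.58 with offsets). In MC38-LM3a Itgav stood at 119 ± 30.6 TPM (0.34, adjusted p = 0.16, and 0.40, adjusted p = 0.000152, with offsets).

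Of the beta subunits in the list that join Itgav, Itgb1 and Itgb8 were absent from the genes listed for these cells, so nothing is known of them here. Itgb3 and Itgb5 were tested and neither passed. Itgb3 stood at 15.1 ± 2.51, 13.5 ± 1.79 and 18.8 ± 0.319 TPM and Itgb5 at 100 ± 9.25, 94.4 ± 5.48 and 105 ± 8.11 TPM (adjusted p from 0.0751 to 0.527), and Itgb6 was below the filter. The largest rise among the receptors, as the mean of both derivatives, was that of Itgb2, the leukocyte integrin beta subunit, from 14.5 ± 0.831 to 29.6 ± 2.96 and 37.1 ± 0.915 TPM (0.97, adjusted p = 3.7e-05, and 1.29, adjusted p = 3.8e-06). Itgam, an alpha subunit that joins it, had means of at most 0.0233 TPM. Lrp1, the endocytic receptor that clears thrombospondins and Ccn2, rose by 0.65 (adjusted p = 0.0444) and by 1.30 (adjusted p = 0.000893), or by 0.86 and 0.96 with offsets. The 2 syndecans, cell-surface heparan sulfate proteoglycans, went opposite ways: Sdc1 fell from 72.3 ± 4.30 TPM to 42.6 ± 2.95 and 45.8 ± 1.05 TPM (adjusted p = 6.6e-05 and 0.000124), and Sdc4 rose from 126 ± 11.3 TPM to 178 ± 16.3 and 215 ± 1.88 TPM (adjusted p = 0.00117 and 6.1e-05).

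In the TGF-beta system 1 of 14 genes tested rose and 2 fell in MC38-LM3a, and 4 rose and 0 fell in MC38-LM3b by limma. These 4 were also the only genes of the list with an unadjusted p under 0.05 there. With offsets 2 rose and 5 fell in MC38-LM3a, and 4 rose and 3 fell in MC38-LM3b. Tgfbr2, the type II receptor, was the gene that rose in both, from 25.3 ± 3.80 TPM to 38.0 ± 6.09 TPM (0.57, adjusted p = 0.00711, and 0.65 with offsets) and 48.2 ± 0.656 TPM (0.91, adjusted p = 0.000315, and 0.61 with offsets). The ligand Tgfb1 was at 116 ± 15.4, 98.8 ± 12.0 and 129 ± 3.56 TPM, with adjusted p of 0.14 and 0.247, and with offsets it fell in MC38-LM3a (-0.24, adjusted p = 0.0144). The genes that fell in MC38-LM3a were the type I receptor Tgfbr1 (-0.57, adjusted p = 0.0261) and the latency protein Ltbp4 (-0.74, adjusted p = 0.0126), and with offsets both also fell in MC38-LM3b, by 0.51 (adjusted p = 6.8e-05) and by 0.45 (adjusted p = 0.000233).

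Among Hippo and SRF regulators, 3 of 23 rose and 2 fell in MC38-LM3a, and 14 rose and 2 fell in MC38-LM3b. With offsets 9 rose and 5 fell in MC38-LM3a, and 14 rose and 5 fell in MC38-LM3b. The genes that fell without offsets were TEAD factors, and with offsets the Hippo kinase Stk3 and its upstream regulator Nf2 were among those that fell in both. Tead2 went from 45.0 ± 2.61 TPM to 19.1 ± 0.745 TPM (-1.20, adjusted p = 4.9e-06) and 19.9 ± 1.06 TPM (-1.14, adjusted p = 4.8e-06), and Tead3 from 4.66 ± 0.757 TPM to 2.27 ± 0.202 and 2.43 ± 0.292 TPM (adjusted p = 0.00133 and 0.00153). Tead1, the TEAD factor with the highest level in MC38-LM3b, was at 38.5 ± 8.77, 36.9 ± 12.1 and 53.9 ± 0.593 TPM, with adjusted p of 0.824 and 0.0665 (0.0198 in MC38-LM3b with offsets). The coactivators Yap1 and Wwtr1 (TAZ) were at 100 ± 14.7 and 82.9 ± 7.80 TPM in MC38-P, did not pass in MC38-LM3a (adjusted p = 0.92 and 0.655), and rose in MC38-LM3b by 0.34 (adjusted p = 0.0412) and by 0.40 (adjusted p = 0.00742). With offsets these differences were smaller, 0.08 for Yap1 (adjusted p = 0.0793) and 0.14 for Wwtr1 (adjusted p = 0.00833). Amotl2, which holds YAP back and is also its target, rose in both by 0.39 (adjusted p = 0.0248) and by 0.61 (adjusted p = 0.00165), the latter 0.38 with offsets.

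Other target genes of YAP/TEAD and SRF moved in both directions, with 2 of 24 up and 7 down in MC38-LM3a and, in MC38-LM3b, 10 up and 5 down. With offsets 9 were up and 7 down, and 9 up and 8 down. Amotl2 and Lats2 stand in both lists. Ankrd1, a nuclear ankyrin-repeat cofactor that is used with Ccn1 and Ccn2 as a readout of YAP, rose from 10.3 ± 0.922 TPM to 63.3 ± 3.04 TPM (2.51, SE 0.0841, adjusted p = 4.3e-08) and 69.3 ± 2.15 TPM (2.64, adjusted p = 1.6e-08). Nt5e, the ecto-enzyme CD73 that makes adenosine, fell from 7.83 ± 1.39 TPM to 1.24 ± 0.394 and 1.46 ± 0.354 TPM (-1.98, adjusted p = 2.1e-05, and -1.84, adjusted p = 2.6e-05). The other targets that fell in both were Fjx1, Foxf2, F3 and Acta2, with differences from -1.14 to -0.39. The receptor kinase Axl rose in MC38-LM3b (0.29, adjusted p = 0.0282, and 0.07, adjusted p = 0.113, with offsets) and did not pass in MC38-LM3a (adjusted p = 0.715, and 0.0456 with offsets).

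**Figure D4:**
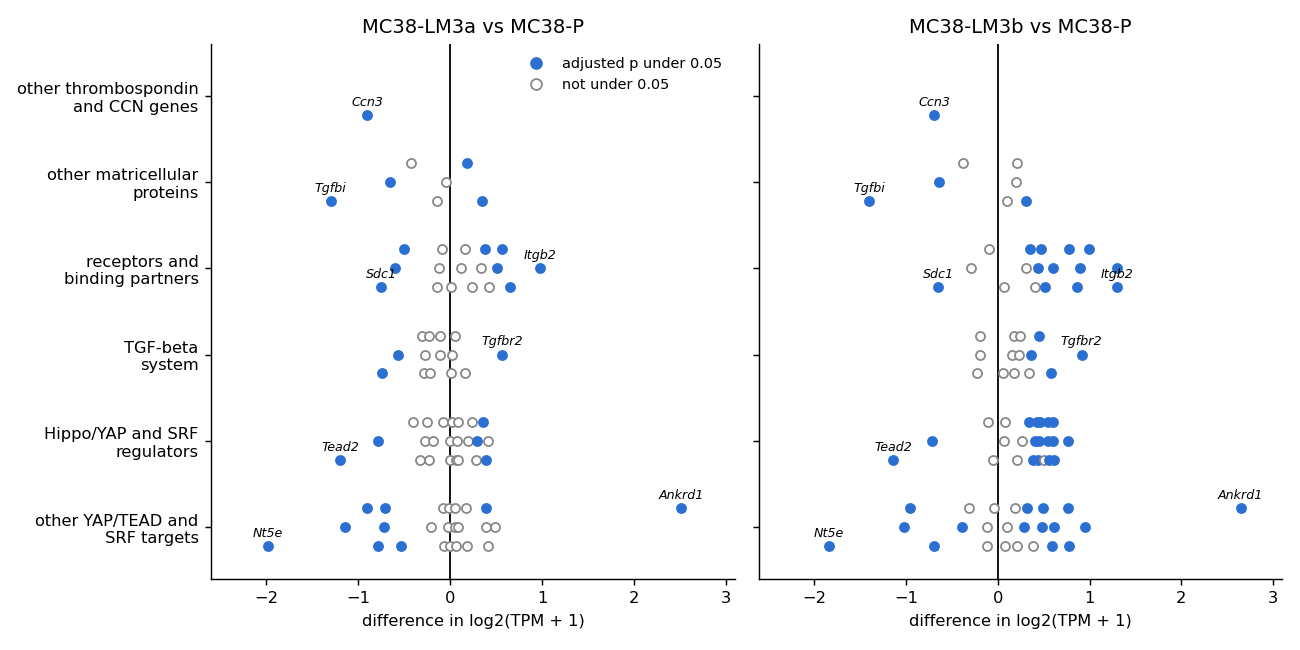
Difference in log2(TPM + 1) from MC38-P of each tested partner gene, by list, in MC38-LM3a (left) and MC38-LM3b (right), with filled points for an adjusted p under 0.05 in limma. Vertical offsets within a list carry no meaning. Ankrd1 (2.51 and 2.64) and Nt5e (-1.98 and -1.84) lie at the ends of the same list.

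The nearest tested gene on each side of a member was looked up by a rule set after values had been seen. Such a gene need not adjoin the member and can lie far from it. Neither of those of Thbs2 fell: they were Afdn (-0.05 and 0.39, adjusted p = 0.858 and 0.0821) and 1600012H06Rik, which rose by 0.34 (adjusted p = 0.0366) and 0.63 (adjusted p = 0.00109), the latter 0.42 with offsets. Krtcap2, on the other side of Thbs3, differed by -0.09 (adjusted p = 0.347, and 0.0365 with offsets) in MC38-LM3a and fell by 0.37 in MC38-LM3b (adjusted p = 0.00123). Ddah1, nearest to Ccn1 on one side, fell by 0.68 (adjusted p = 0.00423) and by 0.51 (adjusted p = 0.013), whereas Stx7, nearest to Ccn2 on one side, rose by 0.59 (adjusted p = 0.000269) and by 0.76 (adjusted p = 4.3e-05). On their other sides, Znhit6 near Ccn1 differed by -0.23 (adjusted p = 0.147, and 0.0221 with offsets) and -0.02 (adjusted p = 0.870), and Med23 near Ccn2 by -0.12 (adjusted p = 0.619) and 0.28 (adjusted p = 0.161). For Thbs1, Fam98b differed by -0.01 (adjusted p = 0.959) and 0.17 (adjusted p = 0.216), and Eif2ak4 by 0.20 (adjusted p = 0.358, and 0.0036 with offsets) in MC38-LM3a, while it rose by 0.56 in MC38-LM3b (adjusted p = 0.0108, and 0.32 with offsets). For Spp1, Nudt9 differed by -0.17 (adjusted p = 0.112, and 0.0259 with offsets) and -0.11 (adjusted p = 0.261), and Pkd2 by 0.09 (adjusted p = 0.789) in MC38-LM3a, while it rose by 0.61 in MC38-LM3b (adjusted p = 0.0251, and 0.37 with offsets).

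Genes most like each member were found by Pearson r of log2(TPM + 1) over the 9 libraries, which fall into 3 lines and share the length trend, so r is a description. For Thbs2 they were Foxred2 (r = 1.00), Grb10 (0.999) and Ephb2 (0.997), with means of at most 0.0800, 0.0267 and 2.13 TPM in the derivatives against 4.10, 13.2 and 23.5 TPM in MC38-P. For Thbs3 they were Dut (0.996), Prkag1 (0.995) and Adh7 (0.994), and for Ccn4 Mtdh, Fam107b and Senp3 (0.996 to 0.997). Mtdh had means of 148, 84.4 and 98.4 TPM. Thbs1 was nearest to the fibrillar collagen gene Col5a1 (0.997), which held 79.9, 48.7 and 66.1 TPM, and then to Zfp703 and Rxra. Spp1 was nearest to Tasor, Mpp6 and Tanc2 (0.993 each), Ccn1 to Cant1, Slc25a51 and Golga5 (0.993 to 0.995), and Ccn2 to Kif2c, Irf1 and Atp1b3 (0.974 to 0.981).

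Markers of cells that could be carried over from the liver were checked beside these levels, since fibroblasts express thrombospondins and Ccn genes and macrophages express Spp1. Of 11 fibroblast and stellate markers 9 were listed, with a summed level of 136 to 174 TPM in MC38-P, 54.8 to 73.4 TPM in MC38-LM3a and 66.5 to 73.5 TPM in MC38-LM3b. This sum moved in the same direction as Thbs2, Thbs3 and Ccn4, and it was mostly Col3a1, at 140.5 ± 16.0, 54.9 ± 8.66 and 60.9 ± 3.60 TPM. Its part in the levels of the members was not tested. Col1a1 also fell, from 13.99 to 4.07 TPM (limma, adjusted p = 9.8e-05) and 4.30 TPM (adjusted p = 9.9e-05), whereas Pdgfrb rose in MC38-LM3b from 1.54 to 3.66 TPM (adjusted p = 0.000695). The defining fibroblast genes Dcn and Col1a2 were at most 0.130 and 0.0800 TPM in any library. Of 13 macrophage markers 6 were listed, with sums of 28.7 to 30.5, 34.7 to 41.5 and 40.4 to 46.0 TPM. Nearly all of this was Cd68, which rose by 0.33 (limma, adjusted p = 0.022) and by 0.57 (adjusted p = 0.000795). Mrc1, with means of 0.617, 0.397 and 0.387 TPM, and Cd163, with 0.277, 0.00667 and 0.0133 TPM, were lower in the derivatives but below the filter. Csf1r, Ptprc and Lyz2 reached at most 0.140, 0.0900 and 0.280 TPM. Endothelial sums lay between 0.680 and 1.89 TPM and hepatocyte sums between 0.00 and 1.00 TPM. Of the markers of the labelled epithelial cell type, Krt8 and Krt18 reached at least 744 and 707 TPM in every library, whereas Cdh1 and Vil1 were at most 0.0800 and 0.130 TPM. The summed epithelial markers also moved with Thbs2, Thbs3 and Ccn4, from 2003 to 2318 TPM in MC38-P against 1592 to 1811 TPM in MC38-LM3a and 1584 to 1629 TPM in MC38-LM3b. This sum was mostly Krt8, with means of 1127, 806 and 764 TPM, and Krt18, with means of 907, 768 and 726 TPM. Krt8 fell by 0.48 (adjusted p = 0.000465) and by 0.56 (adjusted p = 0.000134), Epcam by 1.14 (adjusted p = 9.6e-05) and by 1.07 (adjusted p = 0.000104), and Cdx2 by 1.00 (adjusted p = 0.00101) and by 1.20 (adjusted p = 0.00023). Krt18 fell by 0.24 (adjusted p = 0.0256) and by 0.32 (adjusted p = 0.00424). Against this direction, Krt19 rose by 0.39 in MC38-LM3a (adjusted p = 0.00358) and Krt20 by 0.55 (adjusted p = 0.0344), where in MC38-LM3b they differed by -0.08 (adjusted p = 0.413) and 0.33 (adjusted p = 0.134). Their part in the levels of the members was not tested. In bulk RNA, fewer cells with a transcript and less of it per cell cannot be told apart.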

How the data were processed

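Poly(A) RNA of cultures of the parental line MC38-P and its derivatives MC38-LM3a and MC38-LM3b (3 libraries each, biological replicates according to the study) was sequenced on the DNBSEQ platform. The authors deposited TPM values for 16399 genes, without read counts, so depth and counting error are unknown. The submitters' processing notes name HISAT and GRCm39. The quantification tool and annotation are not given in the sources used here. As the reference used here is GRCm38, no gene coordinates are given, and promoter windows carry the coordinates of RefSeq GRCm38.p6.

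Values were analysed as log2(TPM + 1) with limma 3.58.1 in R 4.3.3 (trended variance, all 9 libraries in 1 model, Benjamini-Hochberg adjustment) for the 11287 genes that reached 1 TPM in 3 or more libraries. Offsets came from a loess fit (span 0.3) on GC content and length of the longest GENCODE M21 transcript, available for 98.3% of these genes. The fit was made to the deviation of each library from the gene means over all 9 libraries. Its whole fitted value was subtracted, so differences in overall level between libraries were removed as well. Between 10875 and 11218 genes per library reached 1 TPM. The procedure was checked on simulated data.

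Members and gene lists were chosen with earlier results of these data known. Genes were named by a rule: the members, the largest rise and fall of each list passing in both derivatives, a set of known receptors, regulators and targets (1 of which is not reported here), and the 3 genes most like each member. Sdc4, Lrp1, Itgam, Tead3, Tgfbr1, Ltbp4, Itgb6, Stk3, Nf2, Fjx1, Foxf2, F3, Acta2, genes of the marker lists and the neighbours were named after their values were seen. Alternatives changed the pseudocount, filter, libraries, replicate numbers as a block, offsets and scaling, and left out each library. Proteomic, metabolomic and single-cell data were not analysed here.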

Additional observations from a re-analysis of the deposited data

How the results depend on the processing

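The counts of partner genes that passed moved with the scaling and with the libraries used, and the causes were not tested. In MC38-LM3a against MC38-P, 29 of 84 passed, against 54 with GC and length offsets, 65 without MC38-P replicate 3 and MC38-LM3a replicate 3 (12 rose and 53 fell), and 21 to 39 when each library was left out in turn. In MC38-LM3b against MC38-P, 49 passed, with 34 to 62 under the alternatives. Between the derivatives 0 passed, with 0 to 68 when each library was left out (68 without MC38-LM3a replicate 3) and 75 without both libraries, a setting chosen after seeing the data. Quantile normalization gave 18 rises and 24 falls in MC38-LM3a and 34 and 20 in MC38-LM3b. The replicate numbers did not pair the samples, as deviations of same-numbered libraries of MC38-P and MC38-LM3a correlated at -0.66 to -0.17. Those of MC38-P and MC38-LM3b correlated at 0.035 to 0.064, and those of MC38-LM3a and MC38-LM3b at 0.057 to 0.075. A replicate block gave 21, 36 and 0 genes, and with offsets, added after seeing the data, 50, 55 and 0. For the members, 125 of 136 values under the alternatives for MC38-LM3a lay within 1 SD of the main value, 114 of 136 for MC38-LM3b and 115 of 136 between the derivatives. Some alternatives cannot move a difference of means: the filters, the replicate block, and leaving out libraries of the line not compared. Their values agree by construction, so these counts overstate how stable the differences are. Between the derivatives, 2 members changed sign with the scaling: Ccn2 went from 0.10 to -0.02 with offsets, -0.10 with quantile normalization and -0.12 with median centring, and Thbs2, near 0 in both, from 0.04 to -0.27, -0.01 and -0.19. Against MC38-P no member changed sign under the alternatives run. Thbs2 was not fitted when any MC38-P library was left out, because it then failed the filter.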
